A study of Mus musculus with 6 samples.

Results

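The major histocompatibility complex (MHC) and antigen presentation genes were read from RNA sequencing of whole atria of obese and lean mice. The members were chosen by name: every gene whose name begins with H2-, the mouse designation of the MHC, with pseudogene names ending in -ps left out, together with B2m, Tap1, Tap2, Tapbp, Tapbpl, Cd74, Ciita, Nlrc5 and Erap1. This gave 50 of the 43432 genes in the table, of which 41 have an H2- name and 44 lie on chromosome 17. Obese mice were wild-type C57/Bl6J mice given a high-fat diet (HFD), lean mice were the same strain given control chow, and both diets ran for 10 weeks from 6 weeks of age (n = 3 mice per group). Right and left atrial tissue of each mouse was used, so each value averages cardiomyocytes, endothelium, fibroblasts and resident or infiltrating leukocytes, and fewer cells of a type cannot be told apart from less RNA per cell. These diets are those in the sample titles and column names. The labels also hold a treatment entry that names the other diet for each of the 6 samples, and every direction given rests on having followed the titles.

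Class I molecules pair a heavy chain with beta-2 microglobulin and show peptides made in the cytosol to CD8 T cells, and nearly every nucleated cell carries them. Class II molecules pair an alpha with a beta chain, show peptides taken up from outside to CD4 T cells, and are mostly made by dendritic cells, B cells and macrophages. Interferon gamma induces both sets, class I largely through the transactivator Nlrc5 and class II through the transactivator Ciita.

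Values are normalized counts, that is reads per gene divided by 1 scaling factor per sample. The 6 libraries held 15874251 to 28971508 reads on genes, lean mouse 2 being the deepest, and 3 reads corresponded to 2.05 to 3.41 normalized counts (counting error only). Atrial myocyte markers summed to between 285064 and 518575 normalized counts and ventricular markers to between 4262 and 13770, the latter highest in lean mouse 2. Of the 50 members, 40 had at least 1 read, and 29 had a mean of at least 10 normalized counts and were tested. Of the 21 others, 11 had reads below that mean and 10 were listed at 0 in every sample. The H2 genes are close relatives and only uniquely mapped reads were counted, so the split of reads between neighbouring H2-Q, H2-T and H2-K genes is uncertain.

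The promoters of H2-K1, H2-D1, H2-Aa, H2-Eb1 and B2m, which were among the members with the highest counts, are shown here. They come from RefSeq (GRCm38.p6) and run 5′ to 3′ in the direction of the gene, from 250 bases before to 50 bases after the start site. RefSeq entries were matched for 19 of the 29 tested members. Capitals mark 3 short motifs searched on both strands: CTGATTGG (the Y box, bound by NF-Y), GGGANTCCC (a kappa B core) and GAAANNGAA (the core of the interferon-stimulated response element). H2-K1 lies at chr17:34000298-34000597 on the minus strand, H2-D1 at chr17:35262844-35263143 on the plus strand, H2-Aa at chr17:34287774-34288073 on the minus strand, H2-Eb1 at chr17:34305617-34305916 on the plus strand and B2m at chr2:122147437-122147736 on the plus strand. H2-K1 has a second RefSeq start close by, which is not shown.
H2-K1: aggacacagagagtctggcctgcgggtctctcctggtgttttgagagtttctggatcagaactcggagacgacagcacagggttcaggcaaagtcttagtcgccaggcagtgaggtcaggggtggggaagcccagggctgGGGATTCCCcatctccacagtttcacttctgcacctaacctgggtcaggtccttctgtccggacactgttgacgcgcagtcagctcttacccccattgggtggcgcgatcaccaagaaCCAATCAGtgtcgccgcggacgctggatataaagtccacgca
H2-D1: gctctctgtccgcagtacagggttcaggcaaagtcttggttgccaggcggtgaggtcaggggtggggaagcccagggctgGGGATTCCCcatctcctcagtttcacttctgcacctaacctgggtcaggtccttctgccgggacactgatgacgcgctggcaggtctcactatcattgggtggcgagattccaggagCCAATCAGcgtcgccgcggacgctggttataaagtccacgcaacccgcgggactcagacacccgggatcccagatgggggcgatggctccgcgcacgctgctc
H2-Aa: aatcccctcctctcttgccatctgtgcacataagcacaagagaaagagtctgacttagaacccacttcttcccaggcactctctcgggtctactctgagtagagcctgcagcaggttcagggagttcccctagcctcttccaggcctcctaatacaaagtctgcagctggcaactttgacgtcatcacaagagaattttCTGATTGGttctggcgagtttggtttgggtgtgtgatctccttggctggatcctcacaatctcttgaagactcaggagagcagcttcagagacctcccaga
H2-Eb1: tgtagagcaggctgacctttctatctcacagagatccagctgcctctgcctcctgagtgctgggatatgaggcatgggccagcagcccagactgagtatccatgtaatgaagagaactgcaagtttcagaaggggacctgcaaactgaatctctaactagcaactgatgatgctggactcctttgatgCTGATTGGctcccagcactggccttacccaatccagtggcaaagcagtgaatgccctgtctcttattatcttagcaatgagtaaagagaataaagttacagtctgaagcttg
B2m: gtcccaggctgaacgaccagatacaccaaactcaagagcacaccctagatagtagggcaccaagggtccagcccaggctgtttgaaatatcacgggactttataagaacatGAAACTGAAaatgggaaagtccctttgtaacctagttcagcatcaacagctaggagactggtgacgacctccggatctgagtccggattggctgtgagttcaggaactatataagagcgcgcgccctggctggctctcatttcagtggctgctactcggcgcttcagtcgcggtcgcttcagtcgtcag

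The Y box occurred in the promoters of 8 of the 19 members (H2-Aa, H2-D1, H2-Eb1, H2-K1, H2-Q6, H2-Q7, H2-T23 and Tap1), and in 4.7% of the 27025 genes in the promoter table. In H2-K1, H2-D1, H2-Q6 and H2-Q7 it was read on the opposite strand (as CCAATCAG) and followed a kappa B core, whose first base lay 118, 117, 117 and 116 bases before that of the Y box. The kappa B core was present in these 4 members and in 0.903% of all genes. In H2-Aa and H2-Eb1 the Y box was read on the gene's own strand. The interferon-stimulated response element core was found for B2m, Erap1, H2-T22 and H2-T23 and for 9.76% of all genes. The gamma-activated site TTCNNNGAA, also searched on both strands, was found for H2-M3 alone among the 19 members and for 9.55% of all genes. None of these motifs was found for Tapbp, H2-Ke6, H2-DMa, H2-DMb1, H2-Ob, H2-Q4 and H2-Q10. The H2-DMa windows searched (chr17:34122582-34122881 and chr17:34125268-34125567) lie upstream of the gene as counted (chr17:34135182-34139101). The Tapbp window (chr17:33919228-33919527) lies inside the gene as counted (chr17:33915899-33929288). For H2-DMa and Tapbp the absence may therefore not describe the promoter of the gene as counted. The matches describe letters only and were not measured as binding sites, and their part in the values of the mice was not tested.

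None of the tested MHC and antigen presentation genes passed the test between obese and lean atria. With limma on log2(normalized count + 1) and Benjamini-Hochberg adjustment over all genes, 0 of 29 members had an adjusted p under 0.05, and 0 of 29 had an unadjusted p under 0.05. Across all 15275 genes tested, 114 genes (0.746%) passed the adjusted threshold and 12.2% had an unadjusted p under 0.05. Adjusted p-values of the members ran from 0.48 to 0.995 in limma. The 3 obese and 3 lean mice overlapped for every tested member, whereas 18.0% of all genes did not overlap. Log2 fold changes (obese minus lean) ranged from -0.32 to 0.56 with a median of 0.10, against 0.00 over all genes. Two-sided exact permutation tests gave p between 0.3 and 1.0, where 3 mice against 3 cannot go below 0.1.

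The spread within the obese group was the main feature of these genes. Obese mouse 3 was the highest of the 6 mice for 27 of the 29 members, as it was for 20.3% of all genes. It stood at least 1.5 times above the next highest mouse for 18 members, against 2.36% of all genes. Relative to the mean of obese mice 1 and 2, its level had a median ratio of 2.59 over the members and 0.991 over all genes, for which the 5th and 95th percentiles were 0.515 and 1.73. A ratio above that 95th percentile was found for 23 of the 29 members. Lean mouse 2 was the highest of the other 5 mice for 21 members, as it was for 19.3% of all genes. Obese mouse 3 had the fewest reads (15874251) and the lowest share on mitochondrial genes (19.54%), and lean mouse 2 the most reads (28971508) and the highest share (30.68%), and the part of depth or RNA quality in these values was not tested.

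**Figure D1:**
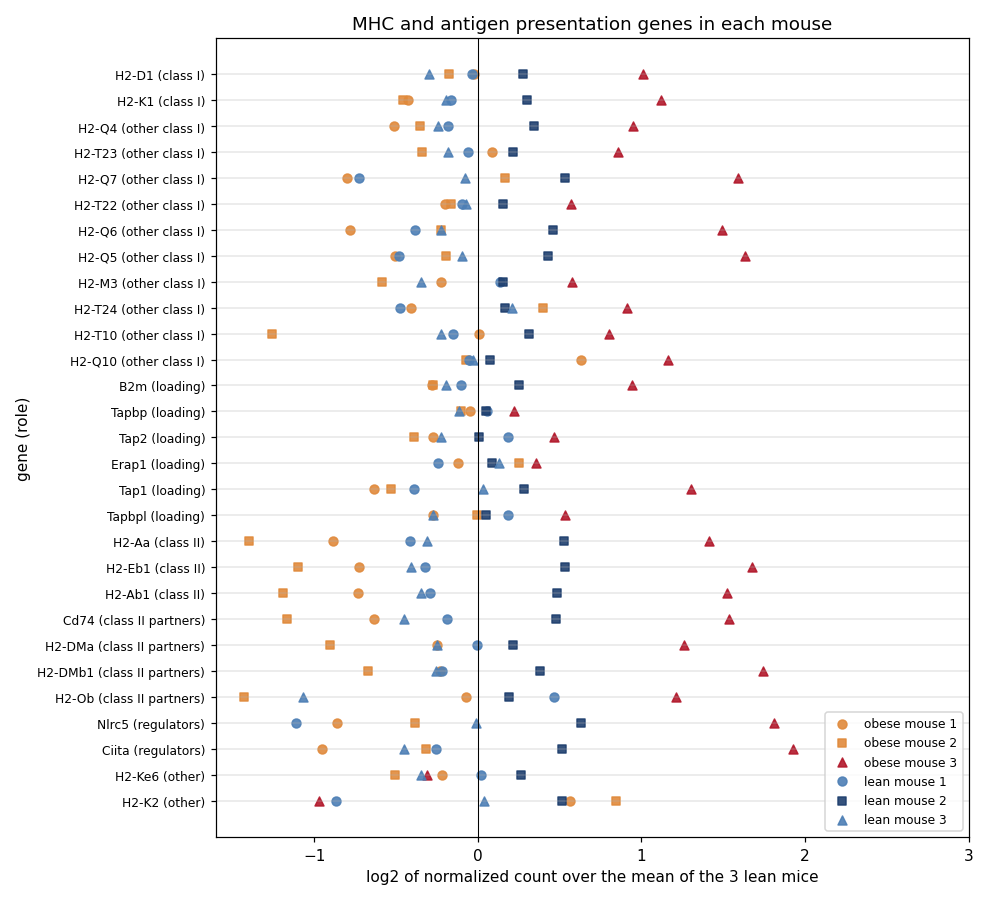
Each row is 1 of the 29 tested genes, and each point is the log2 of a mouse's normalized count over the mean of the 3 lean mice. Obese mouse 3 (dark red triangles) lies farthest right in 27 rows, and obese mice 1 and 2 (orange) lie farthest left for most class II genes.

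The classical class I heavy chains H2-K1 (chr17:33996017-34000333) and H2-D1 (chr17:35262730-35267499) are the main peptide-presenting class I molecules of this strain. H2-K1 measured 3479.8, 3419.5 and 10165.6 normalized counts in obese mice 1 to 3, in that order, against 4190.9, 5772.8 and 4094.5 in lean mice 1 to 3. Obese mouse 3 was thus 1.76 times the next highest mouse, while the other obese mice were below every lean mouse. The log2 fold change was 0.10 (SE 0.35, 95% interval -0.68 to 0.88, limma adjusted p = 0.95). H2-D1 measured 4932.4, 4447.5 and 10116.8 in the obese and 4900.8, 6077.3 and 4089.1 in the lean mice, so obese mice 1 and 2 lay within the lean range. Its log2 fold change was 0.29 (SE 0.27, interval -0.31 to 0.89, limma adjusted p = 0.73). Mean levels were 5688 ± 3878 and 4686 ± 942 normalized counts for H2-K1 and 6499 ± 3143 and 5022 ± 1000 for H2-D1 in obese and lean atria (SD, n = 3).

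B2m encodes beta-2 microglobulin, the light chain that all class I heavy chains need to reach the surface. It measured 3432.6, 3442.9 and 8006.4 normalized counts in the obese and 3884.1, 4961.1 and 3644.2 in the lean mice. As for H2-K1, obese mouse 3 and then lean mouse 2 were the highest, and both remaining obese mice were below all lean mice. Per kilobase of exon, B2m was the most abundant member, with mean levels of 5768 in obese and 4841 in lean atria, followed by H2-D1 (2520 and 1947) and Cd74 (2516 and 1894). The order of H2-D1 and Cd74 could not be separated within the spread between mice.

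Most H2-Q, H2-T and H2-M genes encode further class I heavy chains, several of them with restricted ligands or roles outside classical presentation. The gene annotation lists H2-Q5, H2-T10 and H2-Bl as polymorphic pseudogenes and H2-Q3 as an unprocessed pseudogene. Of 26 such genes 10 were tested, 8 with higher and 2 with lower fitted means in obese atria, and obese mouse 3 was highest for all 10. Its ratio to the other obese mice ran from 1.69 to 3.93 with a median of 2.21. The H2-Q genes at the upper end were H2-Q5 (3.93), H2-Q6 (3.92) and H2-Q7 (3.55), whose products include the Qa-2 antigens.

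H2-Q7 measured 333, 652 and 1744.6 normalized counts in the obese and 350, 840 and 550 in the lean mice. H2-Q6 measured 292, 429 and 1415.2 against 385, 691 and 430. H2-Q5 measured 80.4, 99.9 and 354 against 81.7, 154 and 107. In each of these genes obese mouse 1 was the lowest of the 6 and obese mouse 3 at least 2.05 times the next mouse. H2-Q4 measured 591, 660 and 1622 in the obese and 743, 1069.7 and 712 in the lean mice, with both other obese mice below the lean range.

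H2-T23 encodes Qa-1, a ligand of the CD94/NKG2 receptors of natural killer cells. It measured 809, 602 and 1384.6 normalized counts in the obese and 731, 886 and 672 in the lean mice. H2-T22 and H2-T10 encode ligands of some gamma delta T cell receptors. H2-T22 measured 607, 622 and 1035.9 against 654, 777 and 663, and H2-T10 measured 56.3, 23.5 and 97.7 against 50.4, 69.8 and 48.1. The 2 genes differed in obese mouse 2, which was the lowest mouse for H2-T10 and close to the lean mice for H2-T22.

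H2-M3 presents peptides with a formylated methionine, as bacteria and mitochondria make them. It measured 102, 79.5 and 178 normalized counts in the obese and 131, 133 and 94 in the lean mice. H2-T24 measured 63.3, 111 and 158 against 60.5, 94.4 and 97.3. The largest fitted difference of any tested member belonged to H2-Q10, a class I chain known as a secreted product of the liver, with 43.2, 26.5 and 62.5 in the obese and 26.9, 29.4 and 27.3 in the lean mice (log2 fold change 0.56, SE 0.37, limma adjusted p = 0.603). The 3 lean values lay close together and obese mouse 2 just below them.

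Of the partner and loading genes, Tap1 had the widest range (3.83-fold over the 6 mice) and Tapbp the narrowest. Tap1 and Tap2 form the transporter that carries peptides into the endoplasmic reticulum. Tap1 measured 219, 235 and 839 normalized counts in the obese and 259, 413 and 348 in the lean mice, a ratio of 3.7 for obese mouse 3 over the other obese mice. Tap2 measured 832, 767 and 1390.3 against 1142.1, 1010.8 and 861, a ratio of 1.74. The count of Tap2 relative to Tap1 accordingly spanned 1.66 in obese mouse 3 to 4.42 in lean mouse 1.

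Tapbp, or tapasin, bridges the transporter and the class I chain, and Tapbpl is a related peptide editor. Tapbp measured 2577.7, 2481.2 and 3112.2 normalized counts in the obese and 2776.8, 2766.3 and 2460.4 in the lean mice, the narrowest range of the 29 members (1.26-fold over the 6 mice). Tapbpl measured 161, 194 and 282 against 222, 202 and 161. Erap1, which trims peptides to class I length, measured 343, 444 and 476 against 315, 396 and 407. The difference between the groups was best bounded for Tapbp, with a 95% interval of -0.24 to 0.29 on the log2 scale (limma).

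Class II chains showed the widest spread of the antigen-presenting molecules. H2-Aa (chr17:34282744-34287827) and H2-Ab1 (chr17:34263209-34269418) encode the alpha and beta chains of I-A, the class II molecule of this strain. H2-Aa measured 614, 431 and 3015.6 normalized counts in the obese and 851, 1637 and 915 in the lean mice. H2-Ab1 measured 588, 427 and 2803.2 in the obese and 796, 1363.3 and 767 in the lean mice. For both genes obese mouse 3 was the highest and obese mice 1 and 2 were below every lean mouse.

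H2-Eb1 (chr17:34305877-34316199) encodes the beta chain of I-E, whose alpha chain C57BL/6 mice do not make. It measured 597, 462 and 3163.3 normalized counts in the obese and 790, 1433.8 and 744 in the lean mice, the same order of high and low mice within the obese group. Obese mouse 3 exceeded the mean of the other obese mice 5.77-fold for H2-Aa, 5.52-fold for H2-Ab1 and 5.98-fold for H2-Eb1. Group means were 1354 ± 1442 and 1134 ± 437 for H2-Aa, 1273 ± 1328 and 976 ± 336 for H2-Ab1 and 1407 ± 1522 and 990 ± 385 for H2-Eb1 in obese and lean atria (SD, n = 3). The SD in the obese group exceeded its own mean for each of these 3 genes. In limma the log2 fold change was -0.22 (SE 0.58) for H2-Aa, -0.08 (SE 0.56) for H2-Ab1 and 0.02 (SE 0.58) for H2-Eb1, with adjusted p of 0.922, 0.976 and 0.995. The arithmetic means of H2-Aa and H2-Ab1 were higher in obese atria while their mean log2 values were lower, so the sign depends on the scale. For H2-Ab1 the 95% interval ran from -1.31 to 1.15, so a 2-fold difference in either direction lies inside it.

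Cd74 (chromosome 18) encodes the invariant chain, which guides class II chains to the endosome and blocks their groove on the way. It measured 2051.3, 1418.6 and 9203.6 normalized counts in the obese and 2792.5, 4424.5 and 2322.7 in the lean mice (log2 fold change -0.03, SE 0.55, limma adjusted p = 0.991). H2-DMa and H2-DMb1 encode the chains of H2-DM, which exchanges the invariant chain remnant for peptide, and H2-Ob encodes a chain of its inhibitor H2-O. H2-DMa measured 96.4, 61.2 and 274 against 114, 133 and 96.2, and H2-DMb1 measured 73.3, 54.1 and 288 against 73.9, 112 and 72.1. H2-Ob was near the limit of detection, with 13.1, 5.1 and 31.8 in the obese and 19.0, 15.7 and 6.56 in the lean mice. All 7 tested class II genes and partners were highest in obese mouse 3 and lowest in obese mouse 2.

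The 3 tested class II chains and Cd74 kept nearly fixed proportions to each other in every mouse. While the normalized count of H2-Ab1 spanned 6.56-fold over the 6 mice, the count of H2-Aa over that of H2-Ab1 stayed between 1.01 and 1.2, that of H2-Eb1 over H2-Ab1 between 0.97 and 1.13, and that of Cd74 over H2-Ab1 between 3.03 and 3.51. The class II to class I proportion was less constant: H2-Ab1 over B2m ran from 0.124 in obese mouse 2 to 0.35 in obese mouse 3, with 0.205 to 0.275 in the lean mice. H2-DMa over H2-Ab1 spanned 1.68-fold and was lowest, at 0.0976 and 0.0979, in obese mouse 3 and lean mouse 2, the mice with the most H2-Ab1. Among class I genes, B2m over H2-D1 lay between 0.696 and 0.891 and H2-K1 over H2-D1 between 0.705 and 1.0. H2-Q7 over H2-K1 varied more, from 0.0836 to 0.191, a span of 2.28-fold against 2.21-fold for H2-Ab1 over H2-K1. These ratios compare counts and are not corrected for gene length.

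The regulators had low counts and were also far higher in obese mouse 3 than in the other mice. Ciita, the class II transactivator, measured 13.1, 20.4 and 96.5 normalized counts in the obese and 21.3, 36.3 and 18.6 in the lean mice. Nlrc5, its class I counterpart, measured 49.2, 68.3 and 313 in the obese and 41.4, 138 and 88.5 in the lean mice. Obese mouse 3 exceeded the mean of the other obese mice 5.77-fold for Ciita and 5.33-fold for Nlrc5, close to the ratios of the class II chains and above that of H2-K1 (2.95). The lowest mouse was not the same as for the class II chains: Ciita was lowest in obese mouse 1 and Nlrc5 in lean mouse 1. The log2 fold changes were 0.28 (SE 0.65) and 0.35 (SE 0.62), with limma adjusted p of 0.91 and 0.873.

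The 2 tested members that were not highest in obese mouse 3 are not MHC chains. H2-Ke6, also named Hsd17b8, encodes a mitochondrial dehydrogenase that lies among the MHC genes. It measured 576, 473 and 542 normalized counts in the obese and 680, 807 and 527 in the lean mice, and had the smallest p of the members (log2 fold change -0.32, SE 0.17, limma unadjusted p = 0.0794, adjusted p = 0.48). The pseudogene H2-K2 measured 36.2, 43.9 and 12.5 against 13.4, 34.9 and 25.1 and was lowest in obese mouse 3.

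Members below the testing limit carried few reads. The 11 genes with reads but a mean under 10 held between 2 (H2-M11) and 54 (H2-DMb2) reads summed over the 6 libraries. The others were H2-M2, H2-M5, H2-M9, H2-Q1, H2-Q2, H2-T3, H2-Oa, H2-Eb2 and H2-Bl, a polymorphic pseudogene of the class I group. Only H2-Bl separated the groups, with 2, 6 and 7 reads in the obese and 0 reads in each of the 3 lean mice. Up to 3 reads in a library cannot be told from none at this depth, and 1 of the 3 obese mice was below that. The 10 members listed at 0 in every sample were H2-M1, H2-M10.1 to H2-M10.6, H2-Q3, H2-Pa and H2-Pb.

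**Figure D2:**
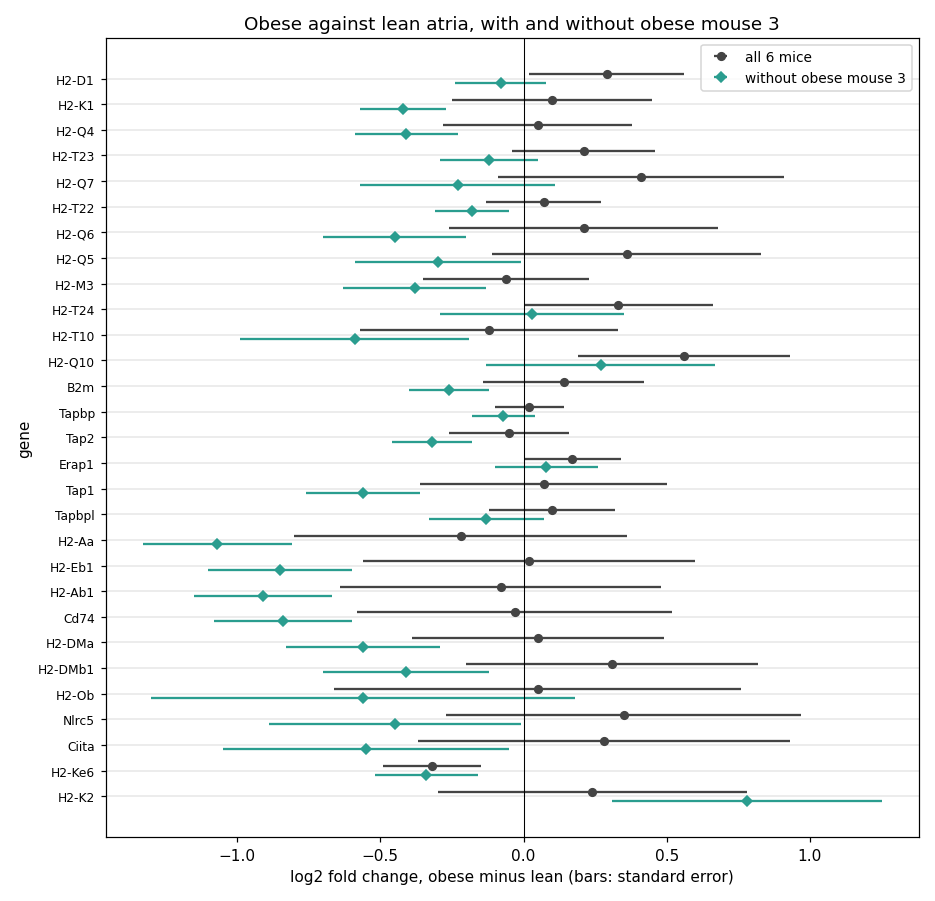
Log2 fold changes (obese minus lean) of the 29 tested genes with their standard errors from limma, with all 6 mice (grey circles) and without obese mouse 3 (green diamonds). The class II genes and their partners lie between -0.22 and 0.31 with all mice and between -1.07 and -0.41 without obese mouse 3.

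Since obese mouse 3 set the level of the obese group, each comparison is given without it as well. With obese mice 1 and 2 against the 3 lean mice, 25 of 29 members had a negative log2 fold change, with a median of -0.38 (0.00 over all genes). In this limma fit 0 of 29 members had an adjusted p under 0.05, a threshold that 2.08% of all genes passed. An unadjusted p under 0.05 with lower values in obese atria was found for 8 of 29 members, against 6.83% of all genes. These were H2-Aa, H2-Ab1, H2-Eb1, Cd74, H2-K1, H2-Q4, Tap1 and Tap2. Both obese mice were below all lean mice for 10 of 29 members, against 16.4% of all genes. Leaving out the mouse that was highest for 27 of the 29 members lowers the obese values of these members by construction, whereas it was highest for 20.3% of all genes. The shares over all genes are therefore no fair reference for these counts, which are a description only.

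The 3 class II chains and Cd74 had the smallest p-values of the members in that comparison. Leaving out their highest mouse lowered the obese level and also the standard error, from 0.58 to 0.26 for H2-Aa. The choice of mouse thus made these p-values smaller, and they are a description only. The log2 fold change was -1.07 (SE 0.26, adjusted p = 0.0695) for H2-Aa, -0.91 (SE 0.24, adjusted p = 0.0987) for H2-Ab1, -0.84 (SE 0.24, adjusted p = 0.128) for Cd74 and -0.85 (SE 0.25, adjusted p = 0.137) for H2-Eb1 in limma. H2-K1 had a log2 fold change of -0.42 (SE 0.15, limma adjusted p = 0.222). By role, the median log2 fold change with all mice and without obese mouse 3 was -0.08 and -0.91 for class II chains, 0.05 and -0.56 for class II partners, 0.19 and -0.25 for classical class I, 0.21 and -0.26 for the other class I chains and 0.08 and -0.20 for B2m and the loading genes. Leaving out any other mouse gave a median between 0.04 and 0.41 over the members.

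Other genes of the pathway are given list by list. For reference, 20.3% of all genes tested were highest in obese mouse 3 and 0.746% passed the test. At that share, 0 passing in a short list says little about the list. The immunoproteasome swaps in catalytic subunits that favour class I peptides. Of its 5 listed genes 0 passed the test between the groups, and 4 were highest in obese mouse 3. Psmb8 measured 251, 233 and 588 normalized counts in the obese and 314, 372 and 273 in the lean mice, and it lies between Tap1 and Tap2 on chromosome 17. The chaperones of the loading complex, Calr, Canx and Pdia3, were all highest in obese mouse 3, with a median ratio of 1.66 to the other obese mice, and 0 of 3 passed the test.

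Class II processing held the 1 pathway gene that passed the test. Ctss, cathepsin S, which degrades the invariant chain in endosomes, rose in obese atria, with 922, 752 and 1007.5 normalized counts in the obese and 500, 467 and 487 in the lean mice (log2 fold change 0.87, SE 0.14, limma adjusted p = 0.0234). All 3 obese mice were above all lean mice, and obese mouse 3 was 1.2 times the mean of the others. The call was lost in limma without a variance trend (adjusted p = 0.177), without obese mouse 1 (0.0727) and without lean mouse 1, 2 or 3 (0.0769, 0.116 and 0.0888), with log2 fold changes of 0.84 to 0.89. Macrophages express Ctss. Of the 10 macrophage markers, 6 had an unadjusted limma p under 0.05 with higher values in obese atria, and 1 of these passed the adjusted threshold. Over all genes, 12.2% had an unadjusted p under 0.05 in either direction. The other markers were Cd68, Adgre1, Fcgr1 and Csf1r, with log2 fold changes of 0.37, 0.23, 0.25 and -0.01. The part of macrophage content in the Ctss values was not tested. The remaining 6 of the 7 listed genes, Ctsl, Ctsb, Ctsd, Lgmn, Ifi30 and March1, did not pass. None of the 7 factors that bind class II promoters passed, the smallest p belonging to Nfyc (log2 fold change -0.37, SE 0.11, limma adjusted p = 0.175). Of the class I-like genes, which include Mr1, Cd1d1, Fcgrt, Hfe and Procr, 0 of 5 tested passed and 0 were highest in obese mouse 3. Their median ratio of obese mouse 3 to the others was 0.814. Mr1 had the smallest p of these 5, with all obese mice below all lean mice (422, 453 and 451 against 580, 657 and 719). Its log2 fold change was -0.56 (SE 0.13, limma adjusted p = 0.086), and those of Cd1d1, Procr, Fcgrt and Hfe were -0.38, -0.17, 0.02 and 0.03. Of the costimulatory genes 0 of 5 tested passed and 3 were highest in obese mouse 3.

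The interferon-stimulated genes followed the same mouse as the MHC genes. All 12 listed genes were highest in obese mouse 3, with a median ratio of 2.91 to the other obese mice, and 0 of 12 passed the test between the groups. Their summed level was 2046, 1798 and 5839 normalized counts in the 3 obese mice, against 2199, 2811 and 2409 in the 3 lean mice. Cxcl9, a chemokine induced by interferon gamma and named here after its values were seen, measured 14.1, 23.5 and 200 in the obese and 29.1, 86.2 and 33.9 in the lean mice. Of the 10 tested genes of the interferon gamma axis 6 were highest in obese mouse 3 and 0 passed the test. The shares over all genes were 20.3% and 0.746%. Ifng itself was near the limit, with 0, 0 and 3.41 in the obese and 0, 3.42 and 5.47 in the lean mice.

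**Figure D3:**
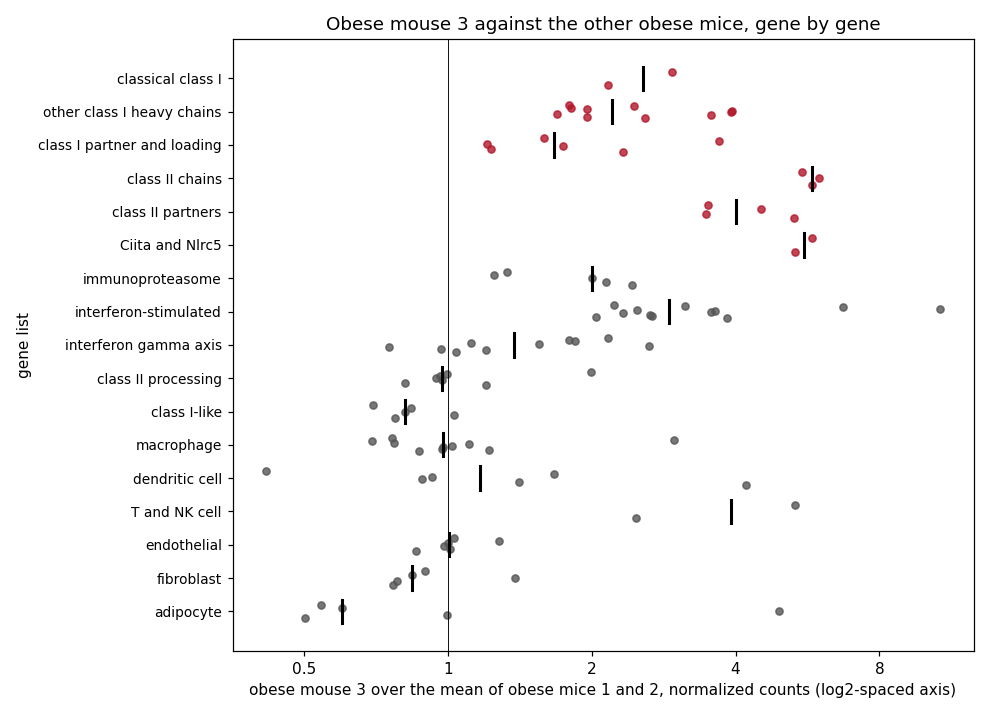
Ratio of obese mouse 3 to the mean of obese mice 1 and 2 (normalized counts, log2-spaced axis) for each tested gene of the lists drawn, with a black bar at the list's median. Not drawn are the members H2-Ke6 (1.03) and H2-K2 (0.312). Also left out are endoplasmic reticulum partners (median 1.66), class II promoter factors (1.05), costimulation (1.48), B cells (1.75), atrial myocytes (1.9) and ventricular myocytes (1.33). MHC and antigen presentation genes are red and other lists grey. Class II chains (median 5.77), Ciita with Nlrc5 (5.55) and interferon-stimulated genes (2.91) lie to the right, and macrophage (0.976) and class I-like genes (0.814) lie near or left of 1.

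Position in the MHC was compared with these ratios. Between the outermost members on chromosome 17 (chr17:33915899-37483552) lie 23 tested members and 100 other tested genes. The ratio of obese mouse 3 to the other obese mice had a median of 2.59 over the 23 members and 1.09 over their 100 neighbours. It was at least 1.5 for 20 members and 12 neighbours. Among those 12, the gene model Gm20547 had the highest ratio (8.91), and others were Psmb8 (2.43), Psmb9 (2.14), the lymphotoxin gene Ltb (2.67) and the heat shock genes Hspa1l (3.46), Hspa1b (2.64) and Hspa1a (2.54). The 6 tested members elsewhere in the genome had ratios of 5.77 for Ciita on chromosome 16, 5.33 for Nlrc5 on chromosome 8, 5.3 for Cd74 on chromosome 18, 2.33 for B2m on chromosome 2, 1.59 for Tapbpl on chromosome 6 and 1.21 for Erap1 on chromosome 13.

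**Figure D4:**
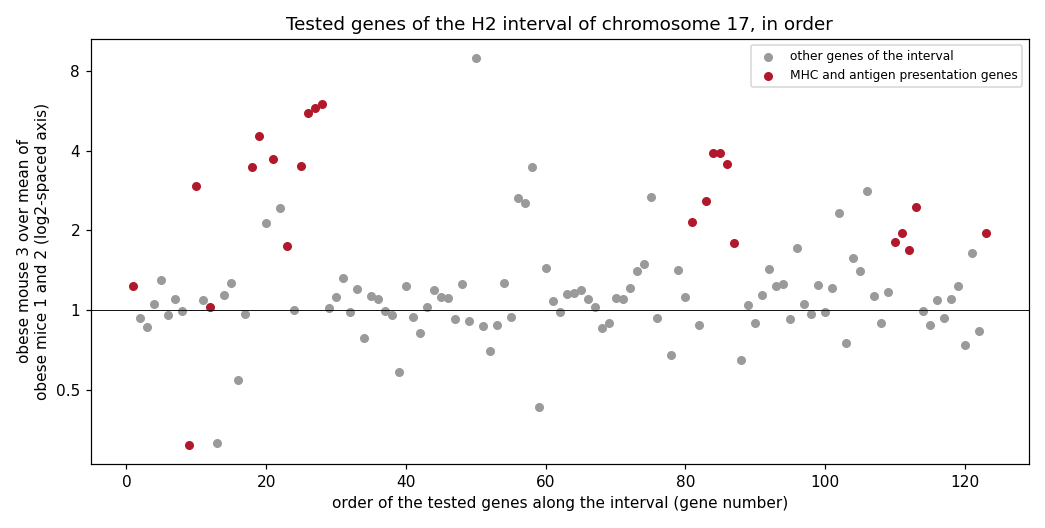
Ratio of obese mouse 3 to the mean of obese mice 1 and 2 (log2-spaced axis) for the tested genes of the H2 interval of chromosome 17, placed in their order along it. The 23 members (red, median 2.59) stand among 100 neighbours (grey, median 1.09).

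Markers of the cell types in the tissue are given beside these results. T and NK cell markers summed to 40.2, 19.4 and 158 normalized counts in the obese and to 63.8, 29.4 and 41.5 in the lean mice. Among them Nkg7, with 0 to 34 reads per library, measured 38.6 in obese mouse 3 and at most 6.72 elsewhere. Every listed marker but Cd8b1 was highest in obese mouse 3, by differing margins and on few reads. Cd8b1 measured 3.41 there and 5.6 in lean mouse 1, and Cd3e measured 15.9 and 14.6 in the same mice. Of these 8 markers none was listed at 0 in every mouse, and 2 were abundant enough to be tested. Macrophage markers, in contrast, summed to 14198, 12474 and 12890 in the obese and 11414, 11001 and 8854 in the lean mice. By this sum obese mouse 3 was within the range of the other obese mice. Of the 10 markers 3 were highest in obese mouse 3, against 20.3% of all genes. Fcgr1 was 1 of these, with 143 in obese mouse 3 and 40.4 to 84.0 in the other mice. The scavenger receptor gene Cd163 passed the test (log2 fold change 0.95, SE 0.16, limma adjusted p = 0.031), the only 1 of the 10 macrophage markers to do so. This call was lost in limma without a variance trend (adjusted p = 0.183) and without any 1 mouse other than obese mouse 3 (adjusted p from 0.0862 to 0.138).

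Dendritic cell markers summed to 840, 574 and 653 normalized counts in the obese and 469, 586 and 379 in the lean mice, with the highest sum in obese mouse 1. That sum was carried by Clec10a, which measured 498, 259 and 158 in the obese and 171, 184 and 118 in the lean mice. Without Clec10a, a choice made after its values were seen, the other 7 markers summed to 342, 315 and 495 in the obese and 298, 402 and 261 in the lean mice. Most of that sum was Zbtb46, which measured 212, 212 and 300 in the obese and 195, 224 and 175 in the lean mice. Itgax (CD11c) measured 70.4 in obese mouse 3 and 15.1 to 37.0 in the other mice. In all, 3 of the 6 tested dendritic cell markers were highest in obese mouse 3, against 20.3% of all genes. Of the other tested markers, Xcr1 and Clec10a were highest in obese mouse 1 and Clec9a in lean mouse 2. B cell markers were low throughout, at 24.5 to 44.2 in the obese and 30.6 to 41.7 in the lean mice. Summed atrial myocyte markers were lower in obese mice 1 and 2 (285064 and 285797) than in obese mouse 3 (518575) and the lean mice (440112 to 480118). Of these markers 0 of 5 passed the test, against 0.746% of all genes. Most of each sum was Nppa. Myl7 and Myl4 were likewise lower in obese mice 1 and 2 than in every other mouse. Myl7 measured 31185.6, 27168.1 and 58765.4 in the obese and 60190.2, 56346.0 and 58183.5 in the lean mice. Myl4 measured 57076.2, 54352.6 and 98076.4 against 97410.3, 88720.7 and 87506.4. Sln and Bmp10 differed in order. Sln measured 23713.7, 19692.8 and 19798.6 in the obese and 26120.8, 27599.8 and 25150.8 in the lean mice. Bmp10 measured 1386.3, 5575.4 and 7959.9 against 2211.4, 1374.9 and 5567.9. Endothelial markers summed to 16084 to 16937 in the obese and 13878 to 14248 in the lean mice, and 0 of 6 passed the test. Pecam1 differed most, with means of 5917 and 3989 (log2 fold change 0.57). The log2 fold change was 0.04 to 0.16 for Cdh5, Kdr, Tie1 and Emcn and -0.19 for Egfl7. The part of T and NK cells, of dendritic cells or of myocyte content in the values of the MHC genes was not tested.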

How the data were processed

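Atrial RNA of 3 obese and 3 lean mice was sequenced from directional libraries. The authors mapped single-end reads to GRCm38 with STAR, retained those with a unique position, and counted them per Ensembl 79 gene with Salmon. The signal they deposited is the read count of a gene over the DESeq2 size factor of its sample (normalized counts in the text). The sources used here do not say whether strand was used in counting, so overlapping genes on opposite strands are uncertain. The deposited columns of the authors' own comparison (fold changes, standard errors, test statistics, p-values and a ranking score) were not used.

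Differences were tested by limma 3.58.1 (R 4.3.3; lmFit and eBayes, variance trend) after taking log2(normalized count + 1). Genes needed a mean of 10 or more, p-values were adjusted over all 15275 genes by Benjamini-Hochberg, and the threshold was 0.05. All 6 samples entered without covariates. Adding 1 understates the change of low genes. Single genes also had a two-sided exact permutation test. To recover reads, the values of a sample were divided by the smallest one above 0, and 100% came out whole (within 0.001). The 1 row without a gene name held 0.0% of reads.

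Every member is named, by role, with values per sample for those tested. Other pathway and marker genes are given as counts over their lists, with examples. Psmb8, Psmb9, Ifng, Cxcl9, the individual markers of cell types and the neighbours within the MHC were named after their values were seen. The members and lists were chosen with earlier results of these data known. Gene names came from GENCODE M21, matching 97.8% of identifiers, and per-kilobase levels use its exonic lengths. Alternatives were quantile normalization, scaling to each sample's total, size factors without mitochondrial genes, no variance trend, other filters, a pseudocount of 0.1, a block for the replicate number, leaving out each mouse, and edgeR 4.0.16 or DESeq2 1.42.0 on recovered reads. The limma procedure was checked with simulated data before use.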

Additional observations from a re-analysis of the deposited data

How the results depend on the processing

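The number of genes that passed the adjusted threshold was 114 and depended on single mice and on the variance model. It ran from 14 (without lean mouse 2) to 318 (without obese mouse 3) when 1 mouse was left out, with 19 without lean mouse 3, 24 without obese mouse 2, 48 without lean mouse 1 and 50 without obese mouse 1. Without a variance trend limma called 0 genes, with 1717 at an unadjusted p under 0.05, and DESeq2 called 443. With the replicate number as a block 157 genes passed. The numbers come from the titles and mark different mice, and the deviations of same-numbered mice correlated at 0.116, -0.027 and -0.00386, so they do not pair the samples. Members that passed numbered 0 in every alternative. The smallest adjusted p of a member in any of them was 0.0695, for H2-Aa without obese mouse 3. Members at an unadjusted p under 0.05 numbered 0, 1 without the filter on low values and 1 in DESeq2 (H2-Bl in both), and 0 to 8 when 1 mouse was left out, the 8 without obese mouse 3.

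The sign of small differences moved with the model and, for fewer members, with the scaling. On recovered reads the log2 fold change became 0.24, 0.25 and 0.25 for H2-Aa, 0.37, 0.38 and 0.38 for H2-Ab1, 0.40, 0.41 and 0.41 for Cd74 and 0.06, 0.06 and 0.07 for H2-T10 in edgeR with TMM, edgeR with RLE and DESeq2, which fit means of counts rather than of logs. In DESeq2 H2-M3 became 0.00. Quantile normalization gave -0.04 for Tapbp and -0.04 for H2-Eb1, and scaling to totals gave 0.02 for H2-M3, 0.02 for Tap2 and 0.04 for Cd74. Leaving out 1 mouse turned the sign of 25 members, 18 of them without obese mouse 3. The log2 fold change then ran from -0.08 to 0.51 for H2-D1, -0.42 to 0.36 for H2-K1, -0.41 to 0.32 for H2-Q4, -0.12 to 0.48 for H2-T23, -0.23 to 0.97 for H2-Q7, -0.18 to 0.21 for H2-T22, -0.45 to 0.68 for H2-Q6, -0.30 to 0.76 for H2-Q5, -0.38 to 0.19 for H2-M3, -0.59 to 0.42 for H2-T10, -0.26 to 0.35 for B2m, -0.07 to 0.09 for Tapbp, -0.32 to 0.11 for Tap2, -0.56 to 0.41 for Tap1 and -0.13 to 0.27 for Tapbpl. It ran from -1.07 to 0.33 for H2-Aa, -0.85 to 0.54 for H2-Eb1, -0.91 to 0.45 for H2-Ab1, -0.84 to 0.51 for Cd74, -0.56 to 0.51 for H2-DMa, -0.41 to 0.78 for H2-DMb1, -0.56 to 0.66 for H2-Ob, -0.45 to 0.87 for Nlrc5, -0.55 to 0.85 for Ciita and -0.12 to 0.78 for H2-K2. Among the tested members H2-Ob (5 to 28 reads per library), H2-K2 (11 to 51) and Ciita (13 to 85) rested on the fewest reads.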
